A study of Mus musculus with 15 samples.

Results

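The genes described here code for the Wnt ligands, their Frizzled receptors, the coreceptors Lrp5 and Lrp6, the secreted antagonists, beta-catenin and the feedback gene Axin2, measured by RNA-seq in aortic valve leaflets of mice. They were chosen by gene name alone, and 34 of the 18073 genes in the deposited table matched: 13 Wnt ligands, 10 Frizzled receptors, 2 coreceptors, 7 secreted antagonists (4 of the Sfrp family, Dkk2, Dkk3 and Wif1), Ctnnb1 and Axin2. All mice were C57BL/6 and 2 months old, and 3 leaflets were taken per mouse. The group N1het_TercG2 (4 libraries) had 1 mutant Notch1 allele and came from the generation 2 of mice lacking Terc, the RNA template of telomerase, which gives short telomeres. The group N1WT_TercG2 (3 libraries) had the same Terc loss with intact Notch1, N1het_TercWT (4 libraries) had the Notch1 mutation with intact Terc and long telomeres, and N1WT_TercWT (4 libraries) had neither change. The series title poses the question of how telomere length bears on Notch1 haploinsufficiency. Notch1 codes for a cell surface receptor with a role in valve formation, and the labels leave unstated what the mutant allele lacks.

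Wnt ligands are secreted, lipid-modified proteins that bind a Frizzled receptor together with Lrp5 or Lrp6. This stops the breakdown of beta-catenin, which then enters the nucleus and acts with TCF and LEF proteins on target genes, Axin2 among them, whereas other Wnt ligands signal through cell polarity and calcium without beta-catenin. In valves the pathway takes part in the growth of the endocardial cushions and the layering of the leaflet matrix, and it has been linked to valve calcification.

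The table gave 1 FPKM value (read fragments corrected for gene length and for library total) per gene and group, so the spread between mice and the read depth are unknown. No value below carries an error and no difference could be tested. Folds are log2(FPKM + 1) of the first-named group minus the other, which understates the change of low genes. Over all genes, the median log2 fold was 0.09 for N1het_TercWT over N1WT_TercWT, 0.06 for N1het_TercG2 over N1WT_TercG2, -0.23 for N1WT_TercG2 over N1WT_TercWT, -0.24 for N1het_TercG2 over N1het_TercWT and -0.16 for N1het_TercG2 over N1WT_TercWT. A relative log2 fold is one computed after this median was set to 0. The 5 comparisons reuse the same 4 groups, so that a high or low value in 1 group enters several of them.

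Of 10 valve interstitial markers, Vim and Dcn stood at 1229 FPKM or more in every group. Across the 10, the highest group was from 1.09-fold (Vim) to 25.8-fold (Tcf21) above the lowest. Tcf21 had 20.1 FPKM in N1het_TercG2, 1.01 FPKM in N1WT_TercG2, 12.3 FPKM in N1het_TercWT and 26.2 FPKM in N1WT_TercWT. The authors' deposited table called it lower in N1WT_TercG2 than in N1het_TercG2 and N1WT_TercWT. Mitochondrial transcripts took 8.83% and 7.63% of the summed FPKM in N1het_TercG2 and N1WT_TercG2, against 2.89% in N1het_TercWT and 3.1% in N1WT_TercWT. Blood and muscle transcripts also varied between the groups: in N1het_TercG2, N1WT_TercG2, N1het_TercWT and N1WT_TercWT the marker sums were 398, 1946, 121 and 3079 FPKM for platelets, 11050.1, 21568, 4949.6 and 11719.8 FPKM for erythroid cells, and 5153, 3525, 4022 and 3059.7 FPKM for cardiomyocytes. Melanocyte markers summed to 38.2, 105, 180.4 and 157 FPKM. Terc was listed at 0 in both groups lacking it, against 4.52 FPKM in N1het_TercWT and 1.42 FPKM in N1WT_TercWT. Notch1 stood at 25.1 FPKM in N1het_TercWT and 39.1 FPKM in N1WT_TercWT, but at 23.3 FPKM in N1het_TercG2 and 16.6 FPKM in N1WT_TercG2. The transcript therefore runs against the labels in the short-telomere pair, and those groups are named as labelled throughout.

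The members covered a wide range of levels. Of the 34 genes, 19 reached 10 FPKM in at least 1 group and 15 did not, 26 stood at 1 FPKM or more in every group, and 4 were listed at 0 in at least 1 group (Wnt8b, Wnt1, Wnt7b and Sfrp5). Dkk3 was the most abundant member in every group, followed by Ctnnb1 in 3 groups. Across the 34 members, the highest of the 4 values fell in N1het_TercG2 for 10 genes (29.4%), in N1WT_TercG2 for 8 (23.5%), in N1het_TercWT for 2 (5.88%) and in N1WT_TercWT for 14 (41.2%). Over all genes the same shares were 19%, 19.2%, 33.3% and 28.5%, so that few members peaked in N1het_TercWT.

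**Figure D1:**
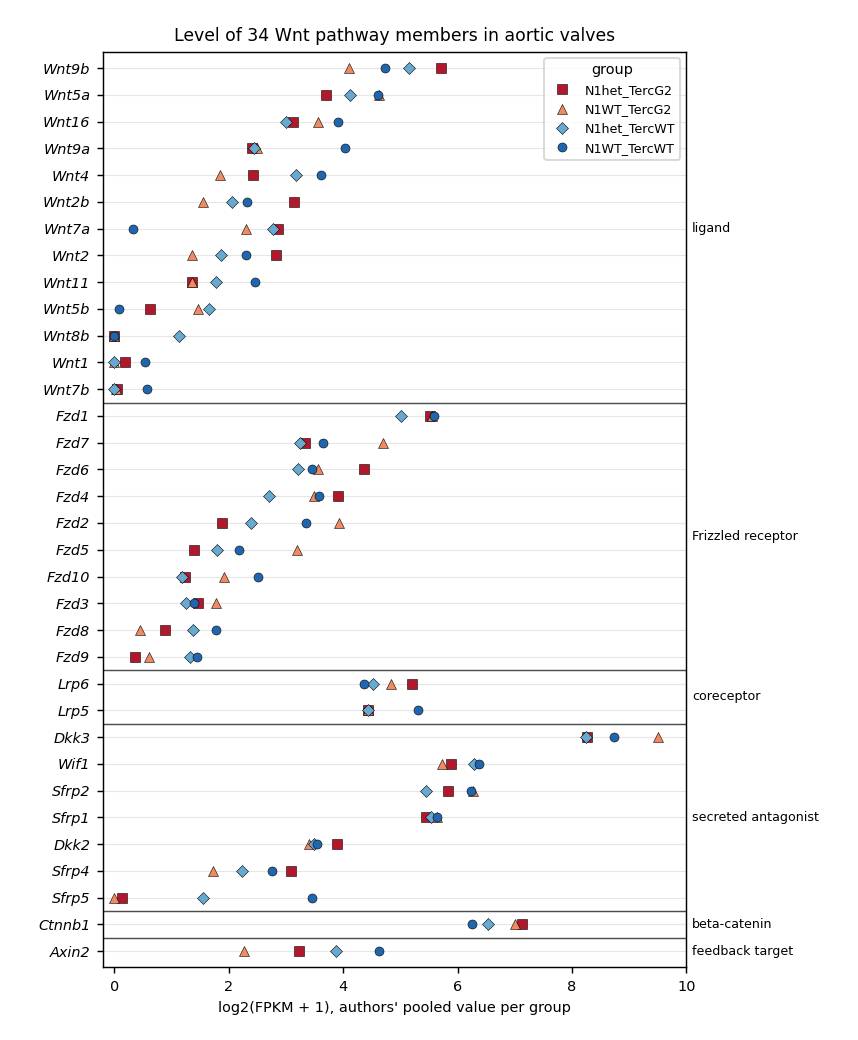
Level of each of the 34 members as log2(FPKM + 1), the authors' 1 pooled value per group, ordered by role and marked by group, with no error available. Dkk3 is the most abundant member in all groups, Wnt7a is low only in N1WT_TercWT, and Wnt9a and Lrp5 stand apart in the same group at the high end.

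In Notch1 heterozygous valves with long telomeres, most of the members were lower. Of the 34 members, 28 (82.4%) had a lower FPKM in N1het_TercWT than in N1WT_TercWT, against 43.6% of all genes. All 10 Frizzled receptors and all 7 antagonists were among them, as were 9 of the 13 ligands, and the counts were the same after either rescaling of the groups. The median log2 fold of the members was -0.44 as deposited and -0.53 relative to all genes. The differences were mostly small. At 2-fold or more, 3 members were higher (8.82%, against 10.9% of all genes) and 3 were lower (8.82%, against 7.53% of all genes), which is near the background. The 3 higher were Wnt7a, Wnt5b and Wnt8b, the last listed at 0 in N1WT_TercWT, and the 3 lower were Wnt9a, Fzd10 and Sfrp5. Markers of other cells moved with this comparison. All 10 valve interstitial markers were lower in N1het_TercWT (summed level 4333 FPKM, against 5179 FPKM in N1WT_TercWT), as were 7 of 8 endothelial markers (243 against 294 FPKM) and 6 of 6 smooth muscle markers (256 against 1145 FPKM). The 10 T cell and thymocyte markers were all higher (1255 FPKM in N1het_TercWT, against 131 FPKM in N1WT_TercWT). The part of these cells in the lower values of the members was not tested. In such whole-tissue RNA, fewer cells of a type and less RNA per cell cannot be told apart.

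The other comparisons moved members in both directions. For N1het_TercG2 over N1WT_TercG2, 4 members were at least 2-fold higher (11.8%, against 12.5% of all genes) and 4 lower (11.8%, against 10.8% of all genes). The 4 higher were Wnt9b, Wnt2b, Wnt2 and Sfrp4, and the 4 lower were Fzd7, Fzd2, Fzd5 and Dkk3, in the pair whose Notch1 level goes against its labels. For N1WT_TercG2 over N1WT_TercWT, 4 were higher (11.8%, against 8.9% of all genes) and 7 lower (20.6%, against 20.9% of all genes). The 4 higher were Wnt7a, Wnt5b, Fzd7 and Fzd5, and the 7 lower were Wnt9a, Wnt4, Wnt11, Fzd8, Sfrp4, Axin2 and Sfrp5, the last listed at 0 in N1WT_TercG2. For N1het_TercG2 over N1het_TercWT, 3 were higher (8.82%, against 4.71% of all genes) and 3 lower (8.82%, against 16.8% of all genes). The 3 higher were Wnt2b, Fzd4 and Fzd6, and the 3 lower were Wnt5b, Sfrp5 and Wnt8b, the last listed at 0 in N1het_TercG2. For N1het_TercG2 over N1WT_TercWT, 1 was higher (2.94%, against 7.48% of all genes) and 8 were lower (23.5%, against 17.2% of all genes). Wnt7a was the 1 higher, and the 8 lower were Wnt9a, Wnt4, Wnt11, Fzd2, Fzd9, Fzd10, Sfrp5 and Axin2. As deposited, some of these shares lay near those of all genes and others did not. For N1het_TercG2 over N1het_TercWT the share higher was above the background and the share lower below it. For N1het_TercG2 over N1WT_TercWT the reverse held as deposited. Each of these shares rests on 8 members or fewer and none was tested. Once the median of all genes was set to 0, the members at least 2-fold higher and lower numbered 3 and 5 for N1het_TercWT over N1WT_TercWT (all genes 9.33% and 8.99%) and 4 and 5 for N1het_TercG2 over N1WT_TercG2 (11.1% and 11.7%). They numbered 6 and 5 for N1WT_TercG2 over N1WT_TercWT (all genes 15.6% and 15.4%), 6 and 2 for N1het_TercG2 over N1het_TercWT (9.49% and 12.1%), and 6 and 6 for N1het_TercG2 over N1WT_TercWT (11.7% and 13.4%). In that last comparison the share of members higher was then 17.6%, above that of all genes, where it had been below as deposited.

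The Notch1 comparisons with long and with short telomeres share no group. Of the 34 members, 14 were lower and 4 higher in the Notch1 heterozygous group in both, 14 were lower with long and higher with short telomeres, and 1 was the reverse. That gives 52.9% of members with 1 direction in both, against 51.3% of all genes. Of all 18073 genes, 3618 were lower and 5660 higher in both, so the members were more often lower in both and less often higher. Among the Frizzled receptors 7 of 10 were lower in both, namely Fzd1, Fzd2, Fzd3, Fzd5, Fzd7, Fzd9 and Fzd10. Any difference counts here, and the log2 fold of Fzd1 with short telomeres was -0.03. These directions were not tested. The 2 telomere comparisons share no group either. Relative to the median of all genes, 13 members were higher and 7 lower with short telomeres in both Notch1 genotypes, 58.8% in 1 direction against 58.2% of all genes. As deposited, the shares were 47.1% and 59.2%.

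**Figure D2:**
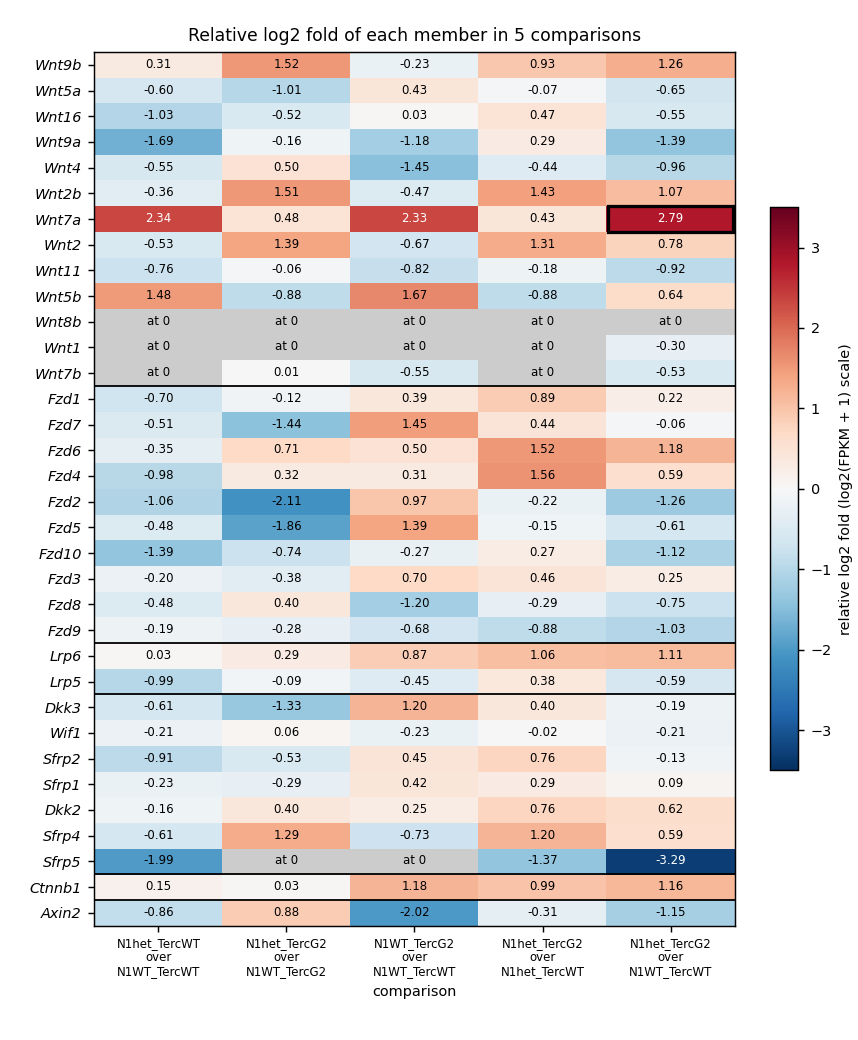
Relative log2 fold of each member (rows) in the 5 comparisons (columns), on the log2(FPKM + 1) scale with the median of all genes at 0; grey cells marked "at 0" have 1 or both groups listed at 0, and the black frame marks the only member called in the authors' deposited table. The Notch1 column with long telomeres is mostly blue, while the short-telomere column holds both colours, with Fzd2, Fzd5, Fzd7 and Dkk3 low and Wnt9b, Wnt2, Wnt2b and Sfrp4 high.

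Wnt9b (ENSMUSG00000018486), a ligand made by the endocardium during mouse valve development, was the most abundant ligand in 3 of the 4 groups. It stood at 51.2 FPKM in N1het_TercG2, 16.1 FPKM in N1WT_TercG2, 34.7 FPKM in N1het_TercWT and 25.5 FPKM in N1WT_TercWT. It was higher in the Notch1 heterozygous group of each pair, with a relative log2 fold of 1.52 with short and 0.31 with long telomeres. The endothelial markers summed to 476, 413, 243 and 294 FPKM in N1het_TercG2, N1WT_TercG2, N1het_TercWT and N1WT_TercWT. The macrophage markers summed to 887, 357, 598 and 496 FPKM, which ranks the groups as Wnt9b does. The part of either cell type in the Wnt9b values was not tested. Wnt9b took 50.2% of the summed ligand FPKM in N1het_TercG2, 23.5% in N1WT_TercG2, 39.5% in N1het_TercWT and 24.7% in N1WT_TercWT. The sum itself was 102, 68.5, 87.9 and 103 FPKM. N1het_TercG2 and N1WT_TercWT therefore had nearly the same total of ligand transcript with a different make-up.

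Wnt5a, the main ligand of the beta-catenin-independent branches, ran the other way. It stood at 12.0 FPKM in N1het_TercG2, 23.6 FPKM in N1WT_TercG2, 16.4 FPKM in N1het_TercWT and 23.3 FPKM in N1WT_TercWT. Both Notch1 heterozygous groups were below both wild-type groups, with relative log2 folds of -1.01 with short and -0.60 with long telomeres. Wnt16, a ligand known for its role in cortical bone, had 7.69, 10.8, 6.97 and 14.1 FPKM in N1het_TercG2, N1WT_TercG2, N1het_TercWT and N1WT_TercWT, the same order of genotypes. In N1WT_TercG2, Wnt5a led the family with 34.4% of the ligand sum. Values in both Notch1 heterozygous groups below those in both wild-type groups were found for 11 of the 34 members (32.4%), against 11.8% of all genes. They were also found for 6 of 6 platelet markers (398, 1946, 121 and 3079 FPKM in sum, in the order of groups given for Wnt16), 5 of 6 smooth muscle markers (475, 596, 256 and 1145 FPKM) and 4 of 6 mesothelial markers (9.66, 25.4, 14.6 and 52.8 FPKM). The same held for 4 of 10 valve interstitial markers (40%) and 2 of 5 erythroid markers. It held for 1 of 8 endothelial and 1 of 6 macrophage markers, and for no cardiomyocyte, T cell, neutrophil or melanocyte marker. The 11 members were Wnt5a, Wnt16, Wnt9a, Fzd1, Fzd2, Fzd5, Fzd7, Fzd10, Dkk3, Sfrp1 and Sfrp2. These counts use the FPKM as deposited, with no threshold on size. Relative to the median of all genes, Fzd1 and Sfrp1 were higher in N1het_TercG2 than in N1WT_TercWT (relative log2 folds 0.22 and 0.09). The count of 11 therefore depends on the scaling. The part of such cells in the values of these members was not tested. Nor was it tested for other genes with this order of groups described further on, such as Rspo3, Gpc3, Sost, Rnf43, Lgr6, Ror1, Btrc and Tcf7l2.

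**Figure D3:**
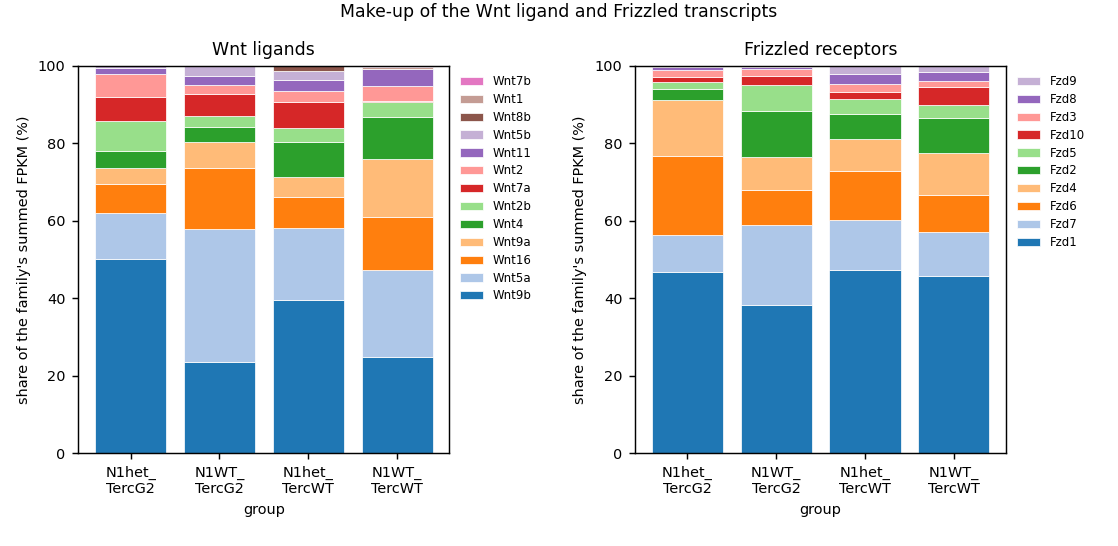
Share of each gene in the summed FPKM of its family, in percent, for the Wnt ligands (left) and the Frizzled receptors (right), 1 bar per group from the authors' pooled values. Wnt9b fills 50.2% of the ligand bar in N1het_TercG2 and 23.5% in N1WT_TercG2, and Fzd1 is the widest band of every Frizzled bar.

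Wnt9a (ENSMUSG00000000126), the paralogue of Wnt9b, was high in 1 group only: it had 4.32 FPKM in N1het_TercG2, 4.64 FPKM in N1WT_TercG2, 4.42 FPKM in N1het_TercWT and 15.4 FPKM in N1WT_TercWT. The 3 groups with a Notch1 or Terc change had nearly equal values. Wnt4, which acts in kidney and gonad formation, was likewise highest in N1WT_TercWT, with 4.34, 2.59, 8.06 and 11.3 FPKM in the same order, and Wnt11, a ligand of the polarity branch, with 1.56, 1.57, 2.44 and 4.50 FPKM. The marker sums of smooth muscle (475, 596, 256 and 1145 FPKM) and mesothelium (9.66, 25.4, 14.6 and 52.8 FPKM) were also highest in N1WT_TercWT, and their part in these values was not tested.

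Wnt7a (ENSMUSG00000030093), known for patterning the limb and for neural and muscle stem cell functions, had the opposite pattern. It stood at 6.28 FPKM in N1het_TercG2, 3.94 FPKM in N1WT_TercG2 and 5.81 FPKM in N1het_TercWT, against 0.248 FPKM in N1WT_TercWT. Its relative log2 fold was 2.79 for N1het_TercG2, 2.33 for N1WT_TercG2 and 2.34 for N1het_TercWT, each over N1WT_TercWT. In the authors' deposited table Wnt7a was called for N1het_TercG2 over N1WT_TercWT, where 0.526% of all genes were called, and it was the only member called in any comparison. The authors' deposited table called 0 of 34 members in the comparisons in which 0.415%, 0.476%, 0.686% and 0.432% of all genes were called. The linear FPKM ratio was 25.3 in the called comparison. Among genes above 0 in both groups, 274 had at least that ratio in either direction. The authors' deposited table called 30 of these 274 (10.9%). Wnt5b shared the low value in N1WT_TercWT, at 0.0598 FPKM, with 0.537 FPKM in N1het_TercG2, 1.77 FPKM in N1WT_TercG2 and 2.14 FPKM in N1het_TercWT. A fold from so low a value depends on the pseudocount.

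Wnt2 and Wnt2b, closely related ligands that specify the lung in mouse embryos, moved together. Wnt2b had 7.85 FPKM in N1het_TercG2, 1.94 FPKM in N1WT_TercG2, 3.16 FPKM in N1het_TercWT and 4.01 FPKM in N1WT_TercWT. Wnt2 had 6.11, 1.56, 2.62 and 3.93 FPKM in the same order. For both, N1het_TercG2 was highest and N1WT_TercG2 lowest, with relative log2 folds of 1.51 for Wnt2b and 1.39 for Wnt2 in N1het_TercG2 over N1WT_TercG2. Both genes stay under 10 FPKM and were picked for description after their values were seen. The 6 macrophage markers summed to 887, 357, 598 and 496 FPKM in the same order, also highest in N1het_TercG2 and lowest in N1WT_TercG2, and their part in the Wnt2 and Wnt2b values was not tested. The last 3 ligands were near the bottom of the range: Wnt8b was listed at 0 in all groups but N1het_TercWT (1.18 FPKM), and Wnt1 and Wnt7b did not pass 0.49 FPKM in any group.

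The stretches before the gene starts are printed for the ligands whose level in N1WT_TercWT stood apart (Wnt7a and Wnt9a) and for the pair that moved together (Wnt2 and Wnt2b). Each is the 250 bases before the start in RefSeq, build GRCm38.p6, read 5′ to 3′ on the strand of the gene, at chr6:91411354-91411603 (minus strand) for Wnt7a, chr11:59306680-59306929 (plus strand) for Wnt9a, chr6:18030446-18030695 (minus strand) for Wnt2 and chr3:104961710-104961959 (minus strand) for Wnt2b. Capitals mark GC boxes (GGGCGG on either strand) and, in Wnt9a, the RBPJ core (TGGGAA on either strand).
Wnt7a: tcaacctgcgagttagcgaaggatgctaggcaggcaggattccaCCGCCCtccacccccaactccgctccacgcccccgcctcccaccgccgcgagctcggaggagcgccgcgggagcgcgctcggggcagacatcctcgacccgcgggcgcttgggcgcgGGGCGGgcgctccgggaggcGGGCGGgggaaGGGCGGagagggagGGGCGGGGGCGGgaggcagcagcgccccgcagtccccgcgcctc
Wnt9a: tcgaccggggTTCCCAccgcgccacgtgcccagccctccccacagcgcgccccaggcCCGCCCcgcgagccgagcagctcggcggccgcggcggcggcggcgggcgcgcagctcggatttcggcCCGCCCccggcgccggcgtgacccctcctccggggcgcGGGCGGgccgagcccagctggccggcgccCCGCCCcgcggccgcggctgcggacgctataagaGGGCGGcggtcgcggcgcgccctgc
Wnt2: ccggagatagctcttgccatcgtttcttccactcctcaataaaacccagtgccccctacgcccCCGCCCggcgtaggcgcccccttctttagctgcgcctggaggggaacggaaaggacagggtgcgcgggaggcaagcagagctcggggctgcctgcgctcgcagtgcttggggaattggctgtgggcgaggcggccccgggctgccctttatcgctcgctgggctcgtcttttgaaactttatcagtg
Wnt2b: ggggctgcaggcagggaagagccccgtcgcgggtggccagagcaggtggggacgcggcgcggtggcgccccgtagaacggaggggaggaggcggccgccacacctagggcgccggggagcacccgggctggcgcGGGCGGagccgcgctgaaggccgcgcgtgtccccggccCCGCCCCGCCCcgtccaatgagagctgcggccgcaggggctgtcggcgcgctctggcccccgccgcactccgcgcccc
The Wnt7a stretch held 6 GC boxes and Wnt9a 5, Wnt2b 3 and Wnt2 1, and none of the 4 held the TCF/LEF core CTTTGA or the TATA box TATAAA. The RBPJ core, the letters read by the DNA-binding partner of Notch, stood 240 bases before the Wnt9a start, and 21.6% of all 32851 RefSeq promoters hold it somewhere in the same window. RefSeq gave promoters for 23 member genes (27 promoters), of which 21 held a GC box, against 32.7% of all promoters, 3 held the TCF/LEF core (13.8%), 2 the RBPJ core (21.6%) and 5 the TATA box (12.4%). A match of such short letters describes the stretch and is not evidence that a factor binds there.

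Among the receptors Fzd1 was the most abundant, with 44.9 FPKM in N1het_TercG2, 45.9 FPKM in N1WT_TercG2, 31.1 FPKM in N1het_TercWT and 46.9 FPKM in N1WT_TercWT. It was low in N1het_TercWT and even among the other 3 groups, and it made up between 38.1% and 47.2% of the Frizzled sum. That sum was 96.2 FPKM in N1het_TercG2, 120.4 FPKM in N1WT_TercG2, 65.9 FPKM in N1het_TercWT and 103 FPKM in N1WT_TercWT.

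Fzd2, Fzd5 and Fzd7, receptors of beta-catenin signalling and, for Fzd2 and Fzd7, of polarity signalling, were highest in N1WT_TercG2. Fzd7 had 9.12 FPKM in N1het_TercG2, 24.9 FPKM in N1WT_TercG2, 8.53 FPKM in N1het_TercWT and 11.6 FPKM in N1WT_TercWT. Fzd2 had 2.68, 14.2, 4.25 and 9.23 FPKM in the same order. Relative log2 folds for N1het_TercG2 over N1WT_TercG2 were -1.44 for Fzd7, -2.11 for Fzd2 and -1.86 for Fzd5, and for N1WT_TercG2 over N1WT_TercWT they were 1.45, 0.97 and 1.39. Fzd5, which stayed under 10 FPKM, had 1.61, 8.10, 2.46 and 3.53 FPKM in the same order. For Fzd2, Fzd5 and Fzd7 both Notch1 heterozygous groups were also below both wild-type groups, as for the markers given beside Wnt5a. The neutrophil marker sum was also highest in N1WT_TercG2 (153, 1730.0, 37.8 and 11.5 FPKM in the same order). Ly6g and Camp were at 0 in N1WT_TercWT, and 5 of the 6 neutrophil markers were highest in N1WT_TercG2. So were 5 of 5 erythroid markers, with sums of 11050.1, 21568, 4949.6 and 11719.8 FPKM. The valve interstitial markers were split: 3 of 10 were highest in N1WT_TercG2 and 7 in N1WT_TercWT. Their sum was 5459, 7115, 4333 and 5179 FPKM, of which Dcn alone had 3188, 4698, 2255 and 2692 FPKM, while the mean of log2(FPKM + 1) over the list was 7.06, 6.89, 6.84 and 7.43. The part of these cells in the Frizzled values was not tested.

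Fzd4, the receptor for norrin in vessel growth, and Fzd6, which acts in hair and tissue polarity, were highest in N1het_TercG2. Fzd6 had 19.6 FPKM in N1het_TercG2, 10.8 FPKM in N1WT_TercG2, 8.30 FPKM in N1het_TercWT and 9.96 FPKM in N1WT_TercWT. Fzd4 had 14.0, 10.3, 5.54 and 11 FPKM in the same order. Their relative log2 folds for N1het_TercG2 over N1het_TercWT were 1.52 and 1.56. All 8 endothelial markers were higher in N1het_TercG2 than in N1het_TercWT, with a median relative log2 fold of 1.39, and their part in the Fzd4 and Fzd6 values was not tested. The remaining Frizzleds stood at 4.71 FPKM or less: Fzd10 had 1.34, 2.77, 1.28 and 4.71 FPKM in that order, with both Notch1 heterozygous groups below both wild-type groups. Fzd8 (0.856, 0.365, 1.59 and 2.43 FPKM) and Fzd9 (0.278, 0.525, 1.51 and 1.73 FPKM) were lower in both short-telomere groups than in both long-telomere groups, and Fzd3 lay between 1.38 and 2.42 FPKM.

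The coreceptors Lrp5 and Lrp6, which share the task of passing the Wnt signal to the axin complex, changed places between the groups. Lrp6 stood at 35.9 FPKM in N1het_TercG2, 27.4 FPKM in N1WT_TercG2, 22.0 FPKM in N1het_TercWT and 19.7 FPKM in N1WT_TercWT. Lrp5 stood at 20.7 FPKM in N1het_TercG2, 20.7 FPKM in N1WT_TercG2, 20.5 FPKM in N1het_TercWT and 38.5 FPKM in N1WT_TercWT. Lrp5 was thus even in the 3 changed groups and higher in N1WT_TercWT alone. Lrp6 made up 63.4%, 57% and 51.7% of the pair in N1het_TercG2, N1WT_TercG2 and N1het_TercWT, against 33.8% in N1WT_TercWT. Ctnnb1 (ENSMUSG00000006932), the gene of beta-catenin, followed the order of Lrp6, with 139 FPKM in N1het_TercG2, 128 FPKM in N1WT_TercG2, 91.2 FPKM in N1het_TercWT and 75.4 FPKM in N1WT_TercWT. Its relative log2 fold was 1.18 for N1WT_TercG2 over N1WT_TercWT and 0.99 for N1het_TercG2 over N1het_TercWT, comparisons that share no group. As deposited these log2 folds were 0.76 and 0.61, and with equal totals without mitochondrial genes 0.38 and 0.20. For Lrp6 they were 0.87 and 1.06 relative to the median, 0.46 and 0.68 as deposited, and 0.10 and 0.29 with equal totals without mitochondrial genes. The size of both genes' differences therefore depends on the scaling, while the direction was the same under all 3. In the Notch1 comparisons the relative log2 fold of Ctnnb1 was 0.03 with short and 0.15 with long telomeres. All 8 endothelial markers were higher relative to the median of all genes in the same telomere comparisons, with a median relative log2 fold of 1.02 for N1WT_TercG2 over N1WT_TercWT and 1.39 for N1het_TercG2 over N1het_TercWT, and their part in the Ctnnb1 and Lrp6 values was not tested.

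Dkk3 (ENSMUSG00000030772), a secreted protein of the Dickkopf family whose action on Wnt signalling is unsettled, dominated the antagonists. It stood at 307 FPKM in N1het_TercG2, 727 FPKM in N1WT_TercG2, 303 FPKM in N1het_TercWT and 426 FPKM in N1WT_TercWT. Both Notch1 heterozygous groups were below both wild-type groups, with relative log2 folds of -1.33 with short and -0.61 with long telomeres. It made up 63.3%, 79.4%, 62.6% and 64.8% of the antagonist sum, which was 485, 916, 484 and 658 FPKM in that order. Without Dkk3 the sum was 178, 189, 181 and 232 FPKM.

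Of the other antagonists, Sfrp1, Sfrp2, Wif1 and Dkk2 were more even. Sfrp1, which traps Wnt ligands through a Frizzled-like domain, had 42.6 FPKM in N1het_TercG2, 48.8 FPKM in N1WT_TercG2, 45.2 FPKM in N1het_TercWT and 48.7 FPKM in N1WT_TercWT, the narrowest range of any member at 1.15-fold. Sfrp2, of the same family, had 55.7, 75.9, 42.6 and 74.4 FPKM in that order, again lower in both Notch1 heterozygous groups. Wif1, a ligand-binding antagonist that is also a Wnt target, had 58.3, 52.1, 77.0 and 82.2 FPKM. Dkk2, which binds Lrp6, had 13.9, 9.58, 10.2 and 10.7 FPKM, with no group far from the rest.

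Sfrp4 and Sfrp5 differed more. Sfrp4, picked for description after its values were seen, had 7.53 FPKM in N1het_TercG2, 2.29 FPKM in N1WT_TercG2, 3.72 FPKM in N1het_TercWT and 5.74 FPKM in N1WT_TercWT, the same order of groups as Wnt2 and Wnt2b. Sfrp5 had 0.0993 FPKM in N1het_TercG2, was listed at 0 in N1WT_TercG2, and had 1.92 FPKM in N1het_TercWT and 10 FPKM in N1WT_TercWT. Its relative log2 fold was -3.29 for N1het_TercG2 and -1.99 for N1het_TercWT over N1WT_TercWT, and the authors' deposited table did not call it.

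Axin2 (ENSMUSG00000000142), the feedback inhibitor that beta-catenin switches on, was highest in N1WT_TercWT while Ctnnb1 was lowest there. It stood at 8.33 FPKM in N1het_TercG2, 3.78 FPKM in N1WT_TercG2, 13.7 FPKM in N1het_TercWT and 23.7 FPKM in N1WT_TercWT. Relative log2 folds were -2.02 for N1WT_TercG2 over N1WT_TercWT, -0.31 for N1het_TercG2 over N1het_TercWT, -0.86 for N1het_TercWT over N1WT_TercWT and 0.88 for N1het_TercG2 over N1WT_TercG2. Its promoter is printed because Axin2 is a commonly used readout of the pathway. It is the 250 bases before the start, RefSeq build GRCm38.p6, chr11:108920099-108920348 (plus strand), with GC boxes (GGGCGG on either strand) in capitals.
Axin2: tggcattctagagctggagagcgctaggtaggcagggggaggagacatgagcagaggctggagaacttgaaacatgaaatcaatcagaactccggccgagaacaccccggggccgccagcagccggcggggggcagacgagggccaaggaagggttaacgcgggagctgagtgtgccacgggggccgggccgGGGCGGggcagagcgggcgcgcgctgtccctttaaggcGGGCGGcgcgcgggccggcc
The stretch held 2 GC boxes and no match to the TCF/LEF core, the RBPJ core or the TATA box, which says only that these letters are not in this window.

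Most other genes known to be switched on by beta-catenin also peaked in N1WT_TercWT. Of 17 listed targets 15 were measured, Axin2 and Wif1 included, and 10 of the 15 (66.7%) had their highest value in N1WT_TercWT, against 28.5% of all genes. Lower values in N1WT_TercG2 than in N1WT_TercWT were found for 14 of 15 targets as deposited, beside 61.1% of all genes. Relative to the median of all genes, 12 of 15 targets were lower, beside 8631 of the 18073 genes. In N1het_TercG2 13 of 15 were lower than in N1WT_TercWT (all genes 58.2%), and in N1het_TercWT 12 of 15 (all genes 43.6%). The members of this list overlap with other lists (Rnf43, Znrf3, Lgr5, Apcdd1, Tcf7 and Lef1).

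Nkd1, an inhibitor of dishevelled, had 12.7 FPKM in N1het_TercG2, 6.74 FPKM in N1WT_TercG2, 16.1 FPKM in N1het_TercWT and 28.2 FPKM in N1WT_TercWT, the order of Axin2. Apcdd1, a membrane inhibitor of Wnt signalling, had 14.0, 24.6, 27.9 and 54.0 FPKM in the same order of groups. Bambi, a decoy receptor of the TGF-beta family, had 2.29, 1.97, 5.55 and 9.67 FPKM. Ccnd1, which drives the cell cycle, was an exception, with 126 FPKM in N1het_TercG2 against 44.6, 76.2 and 77.7 FPKM in the other groups, and Myc was nearly even, between 21.1 and 27.0 FPKM. Smooth muscle and mesothelial marker sums were highest in N1WT_TercWT, as given above for Wnt9a, and their part in the target values was not tested.

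**Figure D4:**
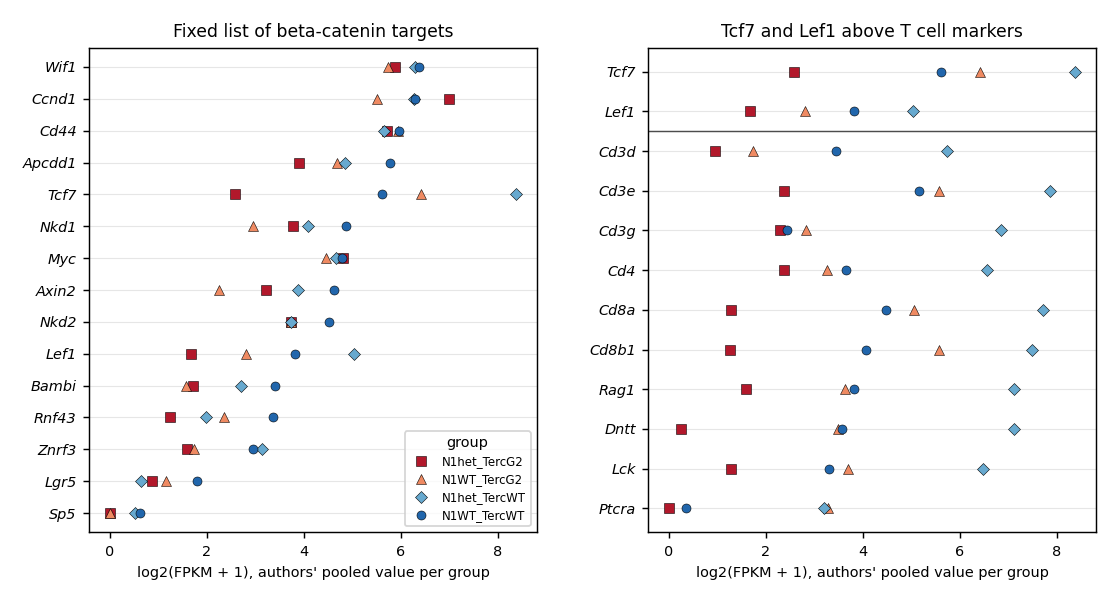
Left, level of the 15 measured beta-catenin targets, and right, of Tcf7 and Lef1 above the 10 T cell markers, as log2(FPKM + 1) of the authors' pooled value per group. Axin2, Nkd1, Apcdd1, Bambi and Rnf43 are highest in N1WT_TercWT, while Tcf7 and Lef1 are highest in N1het_TercWT, where all T cell markers but Ptcra are highest as well.

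The TCF and LEF factors split into groups. Tcf7 stood at 5 FPKM in N1het_TercG2, 84.7 FPKM in N1WT_TercG2, 333 FPKM in N1het_TercWT and 48.0 FPKM in N1WT_TercWT. The authors' deposited table called Tcf7 lower in N1het_TercG2 than in each of the other 3 groups. Lef1 stood at 2.2, 6.02, 32.0 and 13.2 FPKM in the same order, and the authors' deposited table called it lower in N1het_TercG2 than in N1het_TercWT. Tcf7 and Lef1 are also made by T cells, and the T cell and thymocyte marker sum was 19.7, 185, 1255 and 131 FPKM in that order, with Ptcra at 0 in N1het_TercG2. The part of such cells in the Tcf7 and Lef1 values was not tested. The other TCF factors were Tcf7l2, with 12.1, 12.4, 6.91 and 13.7 FPKM, and Tcf7l1, with 7.12, 8.78, 5.56 and 16.1 FPKM. Unlike Tcf7 and Lef1, both were lowest in N1het_TercWT. For these 2 of the 4 factors both Notch1 heterozygous groups were below both wild-type groups (all genes 11.8%), and the part of other cells in this was not tested.

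Of 24 listed genes of Wnt secretion and modulation at the cell surface, 20 were measured, and 12 of them (60%) were highest in N1WT_TercWT, against 28.5% of all genes. In the same group 5 of 6 smooth muscle markers and 5 of 6 mesothelial markers (83.3% of each list) and 7 of 10 valve interstitial markers (70%) were highest, and their part in the values of this list was not tested. Sost, an inhibitor of Lrp5 and Lrp6, had 1.19 FPKM in N1het_TercG2, 2.32 FPKM in N1WT_TercG2, 1.41 FPKM in N1het_TercWT and 21.9 FPKM in N1WT_TercWT, a single high group like that of Wnt9a. Rnf43, which removes Frizzleds from the surface, had 1.38, 4.13, 2.98 and 9.25 FPKM in that order. Rspo3, which strengthens Wnt signals through Lgr receptors, had 12.9, 43.7, 19.1 and 36.6 FPKM, so that both Notch1 heterozygous groups were below both wild-type groups, as for Wnt5a, Sfrp2 and Dkk3 and for the platelet, smooth muscle and mesothelial sums given beside Wnt5a. Wls (listed as Gpr177), needed for the secretion of all Wnt ligands, had 43.4, 42.8, 23.0 and 23.2 FPKM, higher in both groups with short telomeres. Its log2 fold for N1WT_TercG2 over N1WT_TercWT and for N1het_TercG2 over N1het_TercWT was 0.86 and 0.89 as deposited, and 0.49 in each with equal totals without mitochondrial genes. Ctnnb1 and Lrp6 were likewise higher in both of those groups, as was the sum of the endothelial markers (476, 413, 243 and 294 FPKM), whose part in the Wls values was not tested. Lgr6, a receptor for R-spondins, was highest in N1WT_TercWT with 2.56, 4.06, 2.86 and 10.9 FPKM, and Kremen1, a partner of Dickkopf proteins, was highest in N1het_TercWT with 9.69, 12.3, 23.4 and 7.19 FPKM. Ror1, a Wnt5a receptor, peaked in N1WT_TercG2, with 1.2, 8.37, 2.03 and 2.66 FPKM, like Fzd2, Fzd5 and Fzd7. Gpc3, a cell surface proteoglycan, had 2.65, 9.47, 4.76 and 11.8 FPKM, again with both Notch1 heterozygous groups below both wild-type groups.

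Among 20 intracellular genes of the pathway, 8 were at least 2-fold lower in N1WT_TercG2 than in N1WT_TercWT as deposited (all genes 20.9%) and 0 were higher (all genes 8.9%). Relative to the median of all genes, 2 of the 20 were lower (all genes 15.4%) and 0 higher (15.6%), so that the position of the list against all genes depends on the scaling. Btrc, which marks beta-catenin for breakdown, had 2.63 FPKM in N1het_TercG2 against 11.8, 10.7 and 11 FPKM in N1WT_TercG2, N1het_TercWT and N1WT_TercWT. Vangl1, a core polarity protein, had 11.3, 2.52, 5.60 and 2.61 FPKM in N1het_TercG2, N1WT_TercG2, N1het_TercWT and N1WT_TercWT. On the log2(FPKM + 1) scale 0 of the 10 planar polarity genes differed 2-fold between N1het_TercWT and N1WT_TercWT (all genes 10.9% higher and 7.53% lower), but the pseudocount decides this count. The linear FPKM ratio was 2.14 for Vangl1 and 2.26 for Celsr1, a polarity cadherin with 2.45 FPKM in N1het_TercWT and 1.08 FPKM in N1WT_TercWT. Celsr2, of the same family, had 0.448, 0.354, 2.37 and 3.35 FPKM in N1het_TercG2, N1WT_TercG2, N1het_TercWT and N1WT_TercWT, lower in both short-telomere groups. Polarity genes 2-fold higher and lower numbered 1 and 3 for N1het_TercG2 over N1WT_TercG2 (all genes 12.5% and 10.8%). For N1WT_TercG2 over N1WT_TercWT they numbered 0 and 1 (8.9% and 20.9%). For N1het_TercG2 they numbered 0 and 2 over N1het_TercWT (4.71% and 16.8%) and 1 and 2 over N1WT_TercWT (7.48% and 17.2%). For 5 of the 10 (50%, all genes 11.8%) both Notch1 heterozygous groups were below both wild-type groups. The part of other cells in this was not tested. The authors' deposited table called none of the genes in the secretion, intracellular and polarity lists, in comparisons where 0.415% to 0.686% of all genes were called, and a count of 0 in lists of this size is near that background.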

How the data were processed

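RNA came from 3 aortic valve leaflets per mouse after 20 minutes of collagenase at 37 °C, with 15 libraries in 4 groups, per the labels' protocols. The cDNA was amplified with a NuGen kit that keeps no strand, so reads of overlapping and antisense genes cannot be told apart, and low genes carry amplification noise. Paired reads of 100 bp were made, 4 libraries to a lane, per the labels' protocols. The submitters' processing notes name FastQC, TopHat, SAMtools and Picard with build mm9. Not given in the sources used here are which tool made the FPKM, which annotation it used and how genes were called.

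Per the file headers, the FPKM that the authors deposited is 1 value for each gene in each group, so libraries were pooled or averaged before deposit, and depth, spread and batches are unknown. A value of 0 can be a failed estimate. The deposited table also has 5 columns of 0 or 1, read here as the authors' calls. Columns 8 and 9 share a header and were assigned to the 1 pair of groups in which all their called genes differed 4-fold or more. The planned limma test needs values per library and was not run.

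Folds are log2(FPKM + 1) differences, with a pseudocount of 1, given as deposited or after scaling the median of all genes to 0. Members were those whose name matched a rule. Members reaching 10 FPKM in a group, and others with a 4-fold difference, were named in full, as were up to 4 genes per pathway list and comparison. Further members, and some further list genes, were picked after their values were seen. The members, pathway lists and marker lists were chosen with earlier results of these data known. Gene names matched a current symbol by identifier for 16962 of 18073 genes (93.9%). Wls and Amer1 were found under older symbols, and Notum, Rspo4, Kremen2, Sostdc1 and Dkk1 were not matched. Promoters came from RefSeq, build GRCm38.p6, which differs from mm9, so no coordinates of the table are used. The code was tested on simulated data. Software was matplotlib 3.10.9, pandas 2.3.3 and numpy 2.4.6 under Python 3.11.15.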

Additional observations from a re-analysis of the deposited data

How the results depend on the processing

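Of 170 member values (34 genes in 5 comparisons) a pseudocount of 0.1 changed the sign of 0, median scaling of 9 and an equal total without mitochondrial genes of 14, and none of these was 0.5 or more on the log2 scale as deposited. Of the 40 values at 2-fold or more, 40, 35 and 35 kept that size and direction under these settings. Counts of members at 2-fold or more moved more. The share of all genes was not counted for a pseudocount of 0.1, for equal totals without mitochondrial genes or at 4-fold. Counts of members under these settings therefore have no background beside them. With a pseudocount of 0.1 the count lower for N1het_TercWT over N1WT_TercWT was 7 in place of 3, the count higher for N1het_TercG2 over N1WT_TercG2 was 7 in place of 4, the count lower for N1WT_TercG2 over N1WT_TercWT was 12 in place of 7, the count higher for N1het_TercG2 over N1het_TercWT was 6 in place of 3, and the count higher for N1het_TercG2 over N1WT_TercWT was 3 in place of 1.

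With the median of all genes at 0, the count lower for N1het_TercWT over N1WT_TercWT was 5, and the counts higher for N1het_TercG2 over N1het_TercWT and over N1WT_TercWT were 6 and 6. The median of the members then was 0.02 for N1WT_TercG2 over N1WT_TercWT (as deposited -0.25), 0.34 for N1het_TercG2 over N1het_TercWT (0.04) and -0.16 for N1het_TercG2 over N1WT_TercWT (-0.38). With equal totals without mitochondrial genes the same medians were -0.54, -0.27 and -0.63. The median of all genes was then -0.50, -0.54 and -0.43, so much of the shift of the members was shared by all genes. The direction of the members' median with short telomeres therefore depends on the scaling. Under that setting the counts for N1WT_TercG2 over N1WT_TercWT were 2 higher and 12 lower, for N1het_TercG2 over N1het_TercWT 0 higher and 6 lower, and for N1het_TercG2 over N1WT_TercWT 13 lower. Among members with a mean FPKM of at least 1, the median for N1WT_TercG2 over N1WT_TercWT was -0.14.

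At 4-fold or more, N1het_TercWT over N1WT_TercWT had 1 member higher and 0 lower, N1het_TercG2 over N1WT_TercG2 had 0 and 1, N1WT_TercG2 over N1WT_TercWT had 0 and 2, N1het_TercG2 over N1het_TercWT had 0 and 0, and N1het_TercG2 over N1WT_TercWT had 1 higher (Wnt7a) and 1 lower. No paired analysis was possible because the table holds 1 pooled value per group, and leaving out single libraries was not run for the same reason. Without values per library, none of the differences can be set against the spread between mice.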
